A study of Saccharomyces cerevisiae with 4 samples.

Results

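The GAS family of Saccharomyces cerevisiae consists of 5 genes, GAS1 (YMR307W), GAS2 (YLR343W), GAS3 (YMR215W), GAS4 (YOL132W) and GAS5 (YOL030W). Probe sets of an Affymetrix yeast array were taken as members where the platform annotation gave exactly 1 of these symbols, which selected 5 of 9335 probe sets, 1 for each gene, among 5656 genes in all. Total RNA came from 2 groups of cultures, the pmt1 pmt2 mutant (n = 2 arrays) and the wild type strain SEY6210 from which it derives (n = 2 arrays), with a separate biological sample for each array. Cultures were diluted to an optical density of 0.1, grown to 0.45 and then for a further 3 hours. The sources used here do not say how PMT1 and PMT2 were altered, or whether the mutant was a single clone.

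Gas proteins are beta-1,3-glucanosyltransferases held at the cell surface by a glycosylphosphatidylinositol anchor. They cut a beta-1,3-glucan chain and join the released part to the end of another, which lengthens the glucan network of the wall. Gas1 is the main enzyme of growing cells and carries O-linked mannose on a serine-rich stretch, Gas3 and Gas5 are also made during growth, and Gas2 and Gas4 act in building the spore wall. PMT1 and PMT2 encode mannosyltransferases of the endoplasmic reticulum that start the O-mannosylation of proteins. The comparison asks how transcripts of the Gas enzymes stand in the pmt1 pmt2 mutant. Whether Pmt1 and Pmt2 act on the Gas proteins was not tested.

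Signals on the arrays are in linear units as deposited. Background was set at 26.2, which no signal of the 19 bacterial and mouse control probe sets exceeded. PMT1 gave 111.4 and 103.8 on the pmt1 pmt2 arrays, against 1177.7 and 808.7 on the wild type arrays. PMT2 gave 11.9 and 15.5 in pmt1 pmt2, under background, against 2645.5 and 2770.8 in wild type, at least 103-fold lower in the mutant. These levels follow the labels. Array medians were 54.4 and 66.1 in pmt1 pmt2 and 59.8 and 55.3 in wild type. The array numbers differed in a control: the tail-end over start-end signal of actin was 3.15 in pmt1 pmt2 and 2.99 in wild type on the arrays numbered 1, but 1.32 and 1.38 on those numbered 2. All 4 marker genes of mating type alpha were above background on every array, and 0 of 5 a-type markers were. Of the a-type markers BAR1, STE2 and STE6 were under background on all arrays, MFA1 gave 43.8 and 30.3 in pmt1 pmt2 and 24.6 and 38.8 in wild type, and MFA2 gave 12.1 and 20.5 in pmt1 pmt2 and 126.4 and 96.0 in wild type. The alpha markers summed to 9583 and 9877 in pmt1 pmt2, below the 16026 and 14778 in wild type, and whether this bears on the results was not tested.

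The 3 GAS genes of growing cells had clear signals in both strains, and the 2 spore wall genes stayed under background in both. GAS1 and GAS5 were slightly higher on both pmt1 pmt2 arrays than on either wild type array, by averages of 1.18-fold and 1.16-fold. GAS3 overlapped between the strains. None of the 5 passed the test across all genes, limma at an adjusted p under 0.05, which called 22 of 5656 genes (0.389%).

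**Figure D1:**
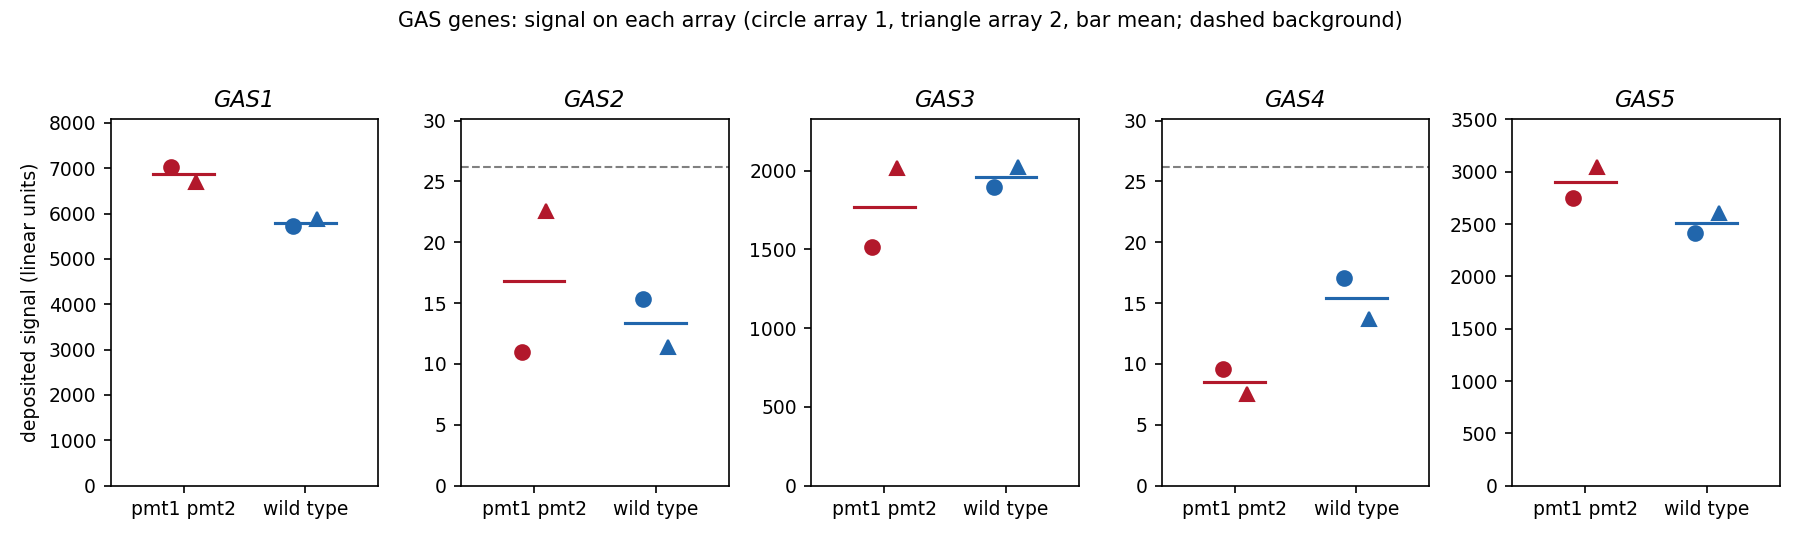
Deposited signal (linear units, axes from 0) of each GAS gene on the 2 pmt1 pmt2 arrays (red) and the 2 wild type arrays (blue), with circles for arrays numbered 1, triangles for arrays numbered 2 and bars for group means. GAS1 and GAS5 had both pmt1 pmt2 points above the wild type points, GAS3 overlapped, and GAS2 and GAS4 lay under the dashed background of 26.2 on all 4 arrays.

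GAS1, for the main glucan elongating enzyme of growing cells, measured 7030.1 and 6694.3 in pmt1 pmt2, against 5715.2 and 5868.9 in wild type. Both mutant arrays were above both wild type arrays, and any mutant array exceeded any wild type array by 1.14-fold to 1.23-fold. The replicates lay close together, 1.05-fold apart in pmt1 pmt2 and 1.03-fold apart in wild type. The group means were 6862 ± 237 in pmt1 pmt2 and 5792 ± 109 in wild type (SD, n = 2 each). The log2 change was 0.24 ± 0.34 (SE), and limma gave an adjusted p = 0.994. Its 95% interval ran from 0.669-fold to 2.10-fold. The difference was larger than the spread between GAS1's own replicates, whose residual SD of 0.040 on the log2 scale was smaller than that of 99.1% of the genes above background on every array. Limma pools the spread over all genes, with a median residual SD of 0.37, and against that spread a difference of this size did not stand out. In RNA of a whole culture, a change in the number of cells with the transcript and a change in its amount per cell cannot be told apart.

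GAS5, for an enzyme of the same activity that lacks the cysteine-rich domain found in Gas1 and Gas2, measured 2750.6 and 3046.5 in pmt1 pmt2, against 2409.8 and 2601.0 in wild type. The groups did not overlap, but the gap was narrow: the lower mutant array exceeded the higher wild type array by 1.06-fold. The means were 2899 ± 209 in pmt1 pmt2 and 2505 ± 135 in wild type (SD, n = 2 each). The log2 change was 0.21 ± 0.34 (SE), with an interval from 0.650-fold to 2.06-fold and a limma adjusted p = 0.994.

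GAS3, whose product has shown little or no elongating activity in vitro, measured 1514.6 and 2018.2 in pmt1 pmt2, against 1896.4 and 2024.1 in wild type. The lowest of the 4 was pmt1 pmt2 array 1, while array 2 of the mutant lay between the wild type arrays. The means were 1766 ± 356 in pmt1 pmt2 and 1960 ± 90.3 in wild type (SD, n = 2 each). The log2 change was −0.16 ± 0.36 (SE), with an interval from 0.487-fold to 1.63-fold (limma adjusted p = 0.994). On the deposited signals the sign rested on pmt1 pmt2 array 1: without it the log2 change was 0.043, against an all-gene median of 0.24. Without pmt1 pmt2 array 2 the log2 change was −0.37, against an all-gene median of −0.14. GAS3 thus stayed below the all-gene median with either array left out.

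GAS2 and GAS4 encode the Gas enzymes of the spore wall. GAS2 measured 11.0 and 22.6 in pmt1 pmt2, against 15.3 and 11.4 in wild type. The groups overlapped, and pmt1 pmt2 array 2 held the highest value. The means were 16.8 ± 8.20 in pmt1 pmt2 and 13.4 ± 2.76 in wild type (SD, n = 2 each). Without pmt1 pmt2 array 2 the log2 change was −0.26, against 0.26 with all arrays (limma adjusted p = 0.994) and 0.78 without pmt1 pmt2 array 1.

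GAS4 measured 9.6 and 7.5 in pmt1 pmt2, against 17.1 and 13.7 in wild type. Both mutant arrays were below both wild type arrays. The means were 8.55 ± 1.48 in pmt1 pmt2 and 15.4 ± 2.40 in wild type (SD, n = 2 each), with a log2 change of −0.85 ± 0.36 (SE) and a limma adjusted p = 0.731. Since all 4 values were below background, no fold is given, and with log2 values below 4 raised to 4 the log2 change was −0.048.

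**Figure D2:**
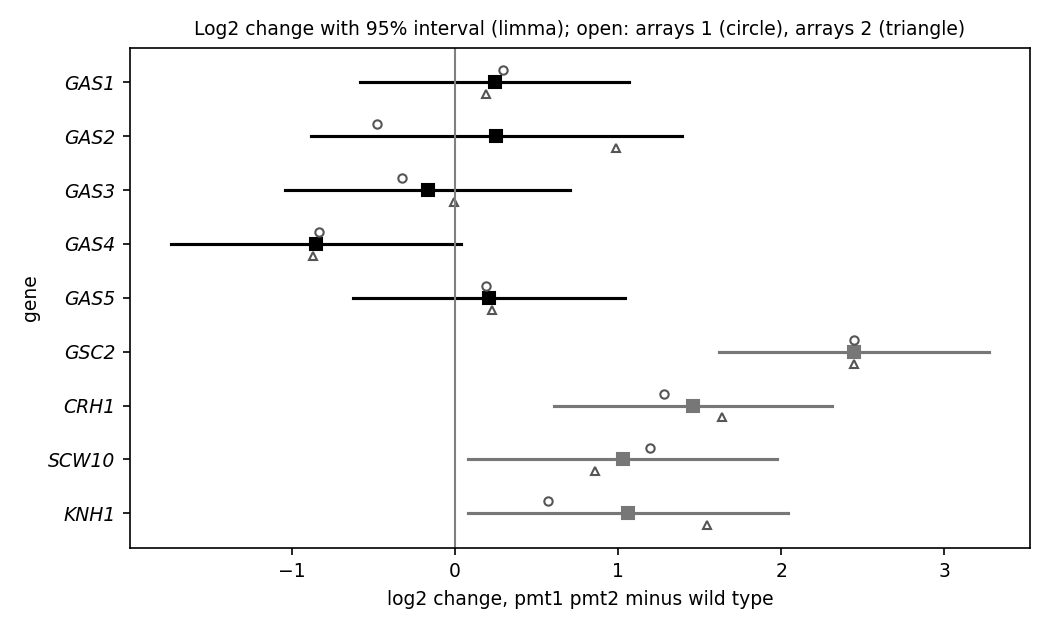
Log2 change, pmt1 pmt2 minus wild type, of the 5 GAS genes (black) and of 4 other wall glucan genes (grey); squares are estimates, bars 95% limma intervals, open circles and triangles the changes within arrays numbered 1 and 2. All 5 GAS intervals include 0, while that of GSC2 runs from 1.62 to 3.27.

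Counted over the family, 2 members (GAS1 and GAS5) had both pmt1 pmt2 arrays above the wild type arrays, 1 (GAS4) had both below, and 2 overlapped. Over all genes 33.2% were separated in this way, 18.5% upward and 14.7% downward, and with 2 arrays per group the smallest p of an exact two-sided permutation test is 0.333. At limma's unadjusted p under 0.05 the family count was also 0, against 7.18% of all genes (5.37% higher and 1.8% lower). GAS1, GAS5 and GAS3 were in the quieter part of the data: 57.1%, 63.1% and 70.3% of all genes had a larger absolute log2 change. The median log2 change of the 5 members, 2 of them under background, was 0.21, against 0.027 for all genes. Within the arrays numbered 1 the family median was −0.32, against −0.15 for all genes. Within those numbered 2 it was 0.19, against 0.21. These family medians include GAS2 and GAS4, which were under background, so they say little about the family. Within the arrays numbered 1, GAS1 and GAS5 lay 0.45 and 0.34 above the all-gene median, and GAS3 was at −0.17 relative to it. Within those numbered 2, GAS1, GAS5 and GAS3 were at −0.023, 0.015 and −0.22 relative to that median.

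The changes of the members were also read within each array number. Over all genes the median log2 change came to −0.15 within the arrays numbered 1 and 0.21 within those numbered 2. GAS1 changed by 0.30 within the arrays numbered 1 and by 0.19 within those numbered 2. Relative to the all-gene median, its change was thus 0.45 within the arrays numbered 1 and −0.023 within those numbered 2. For GAS5 the changes were 0.19 and 0.23, or 0.34 and 0.015 relative to the median. Both genes thus lay above the typical gene within the arrays numbered 1 and close to it within those numbered 2; the part of the actin control difference in this was not tested. GAS3 changed by −0.32 and −0.0042, or −0.17 and −0.22 relative to the median, which is lower within both numbers. GAS4 was lower within both, by −0.83 and −0.87, at signals under background. GAS2 went in opposite directions, −0.48 and 0.99.

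The sporulation programme gives a reference for the dim members. Of 24 spore wall and sporulation genes, 18 were at or below background on all 4 arrays, as were 10.6% of all genes. Another 3 were above it on all, namely CHS3, CDA2 and IME1. Of 10 markers of sporulating cells, IME1 alone was above background on every array. No marker was at 0, and the 10 summed to 131 and 159 in pmt1 pmt2, and to 123 and 116 in wild type. Most of these genes, like GAS2 and GAS4, had no signal above background in either strain.

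None of the 24 passed the adjusted test, with 2 higher and 1 lower at limma's unadjusted p under 0.05, where all genes gave 5.37% and 1.8%. SSP1, for a protein of the prospore membrane edge, measured 5.9 and 5.3 in pmt1 pmt2, against 24.2 and 11.4 in wild type (limma adjusted p = 0.430). SMK1, a MAP kinase of spore wall assembly, measured 14.9 and 14.6 in pmt1 pmt2, against 2.5 and 7.3 in wild type (adjusted p = 0.488). All 8 of these values were below background, as were those of GAS2 and GAS4. IME2, a kinase that drives meiosis, measured 12.1 and 31.7 in pmt1 pmt2, against 9.9 and 5.4 in wild type (adjusted p = 0.691). CRR1, a spore wall relative of the chitin-glucan crosslinking enzymes, measured 14.1 and 27.1 in pmt1 pmt2, against 41.7 and 30.2 in wild type (adjusted p = 0.854).

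The other enzymes and regulators of wall glucan take part in making, trimming or crosslinking it. Not all of them act on the chains that Gas proteins extend. Their log2 changes ran from −0.33 to 2.45, against −0.16 to 0.24 in the 3 GAS genes above background. A range over 26 genes tends to be wider than a range over 3. All 26 were above background on every array. None passed the adjusted test, and 4 were higher and 0 lower at limma's unadjusted p under 0.05. Over all genes 5.37% were higher and 1.8% lower at that level. The groups did not overlap for 11 upward and 1 downward, against 18.5% and 14.7% of all genes. A log2 change above 0 was seen in 24 of the 26 and in 52.5% of all genes, and the median was 0.42 (0.23 within the arrays numbered 1 and 0.65 within those numbered 2). Without pmt1 pmt2 array 2 that median was 0.096, against −0.14 for all genes. Without pmt1 pmt2 array 1 it was 0.76, against 0.24 for all genes. The list was chosen with earlier results of these data known.

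GSC2 (also FKS2), for the glucan synthase subunit used under stress, measured 1257.7 and 1342.7 in pmt1 pmt2, against 230.7 and 246.7 in wild type. Its log2 change was 2.45 within the arrays numbered 1 and 2.44 within those numbered 2, with a limma adjusted p = 0.0746. GSC2 passed limma with a mean-variance trend (adjusted p = 0.0340) and with a minimum mean log2 value of 6 (0.0155). It did not pass under the normalization, floor, probe set and left-out-array alternatives, where limma's adjusted p ran from 0.0682 to 0.609. The highest of these came with the mean of its 7 probe sets (log2 change 2.35 ± 0.84, SE), and leaving out pmt1 pmt2 array 1 or array 2 gave 0.189 or 0.336. FKS1, the synthase subunit of ordinary growth, overlapped between the strains at 1859.7 and 2226.9 in pmt1 pmt2, against 2636.5 and 1556.1 in wild type. The log2 changes of FKS1 and GAS1 were thus 0.0068 and 0.24, below that of GSC2.

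CRH1, which joins chitin to glucan, measured 2584.6 and 2628.2 in pmt1 pmt2, against 1062.5 and 845.8 in wild type (log2 change 1.46, limma adjusted p = 0.272). SCW10, a wall protein related to glucanases, measured 3342.1 and 4054.4 in pmt1 pmt2, against 1455.8 and 2236.8 in wild type (log2 change 1.03, limma adjusted p = 0.651). KNH1, a homologue of KRE9 with a role in beta-1,6-glucan, measured 52.2 and 86.3 in pmt1 pmt2, against 35.1 and 29.5 in wild type (log2 change 1.06, limma adjusted p = 0.652). For each of these genes both mutant arrays were above both wild type arrays. The difference between their changes and those of the GAS genes was not tested.

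**Figure D3:**
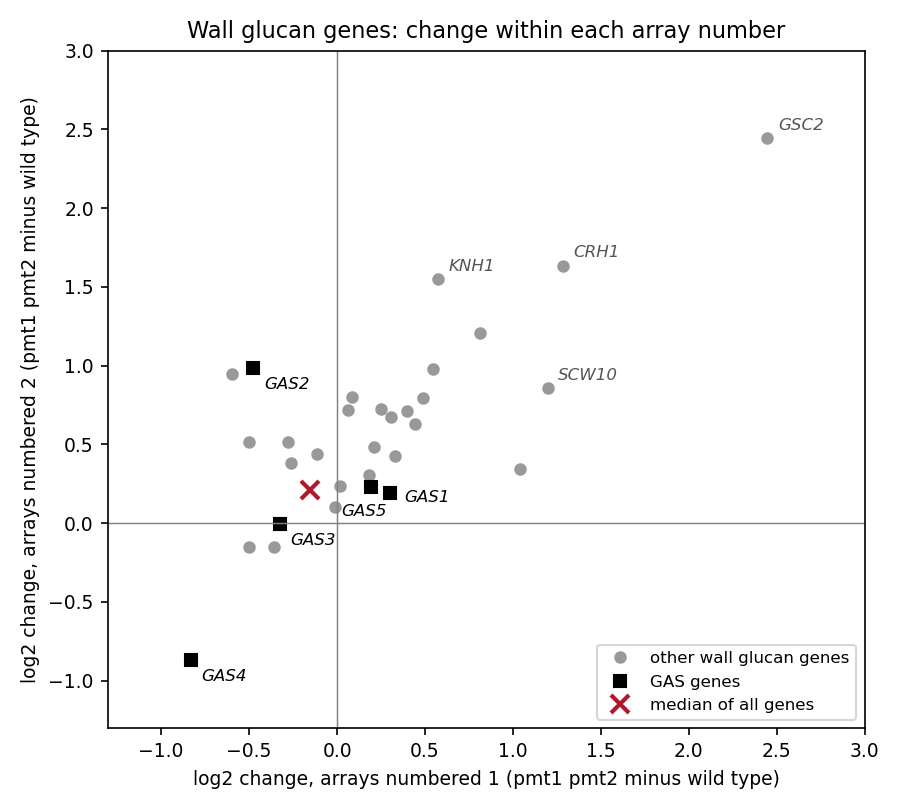
Log2 change, pmt1 pmt2 minus wild type, within the arrays numbered 1 (horizontal) and numbered 2 (vertical) for the 5 GAS genes (black squares) and 26 other wall glucan genes (grey circles); the cross marks the median of all genes at −0.15 and 0.21. GAS1 and GAS5 lie close to the cross in height and to its right, whereas GSC2 lies at 2.45 and 2.44.

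The order of genes around the members was taken from the R64 assembly, which was used only for names and order. GAS1 on chromosome XIII is next to FKS3, a glucan synthase homologue linked to spore wall assembly, and SCW10 follows. On chromosome XII, GAS2 is separated from FKS1 by a single gene, YLR342W-A. GAS5 on chromosome XV is next to SIL1, for an exchange factor of the chaperone Kar2, and GAS3 on chromosome XIII is next to SCJ1, for a chaperone of the endoplasmic reticulum.

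Of the 20 protein-coding genes within 2 places of a member, 18 had a probe set of their own, 0 passed the adjusted test and 3 (SIL1, SCW10 and YOL131W) were higher at limma's unadjusted p under 0.05, against 5.37% of all genes. The lowest adjusted p among them was 0.409, and the median log2 change was −0.0061. SIL1 measured 318.4 and 293.6 in pmt1 pmt2, against 141.2 and 120.3 in wild type, a log2 change of 1.23 beside 0.21 in GAS5. FKS3 measured 36.2 and 69.8 in pmt1 pmt2, against 31.3 and 49.9 in wild type, and the groups overlapped. YOL131W, beside GAS4, lay below background on all arrays.

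**Figure D4:**
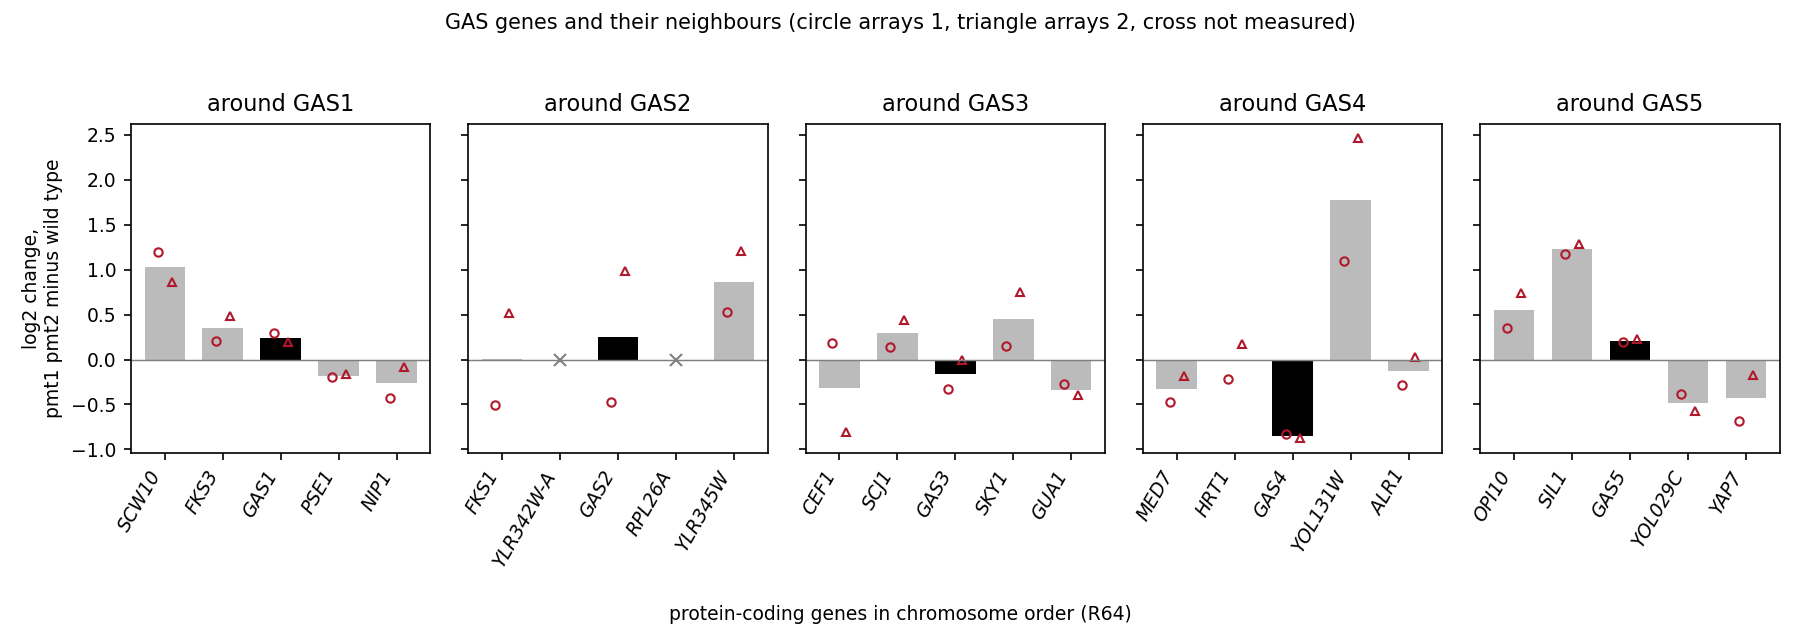
Log2 change, pmt1 pmt2 minus wild type, of each GAS gene (black bars) and of the protein-coding genes up to 2 places away (grey bars), with the changes within arrays numbered 1 (circles) and 2 (triangles); crosses mark genes without a probe set of their own. SIL1 beside GAS5 has the bar at 1.23, and YOL131W beside GAS4 was below background on all arrays.

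Profiles over the 4 arrays were compared by the Euclidean distance of log2 values centred on each gene's mean, among 4323 genes above background on every array. GAS1 and GAS5 were 0.17 apart, and GAS5 was the 29th nearest gene to GAS1. GAS3 was farther from both, at 0.53 from GAS1 and 0.42 from GAS5. The nearest genes to GAS1 were OCA5 (distance 0.097), the ubiquitin ligase gene PSH1 (0.10) and the kinase gene ISR1 (0.10). VRG4, for the GDP-mannose transporter of the Golgi, was nearest to GAS3 at 0.014, followed by the histidyl-tRNA synthetase gene HTS1 (0.031) and VMA4, for a subunit of the vacuolar ATPase (0.041). VRG4 measured 1336.4 and 1794.4 in pmt1 pmt2, against 1691.7 and 1784.8 in wild type, with the same low first mutant array as GAS3. LEU4, of leucine synthesis, was nearest to GAS5 at 0.041, followed by the tRNA splicing gene SEN15 (0.061) and the myosin light chain gene MLC2 (0.067). With 4 arrays and 4323 genes, close profiles are numerous, and these names describe the pattern only.

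**Figure D5:**
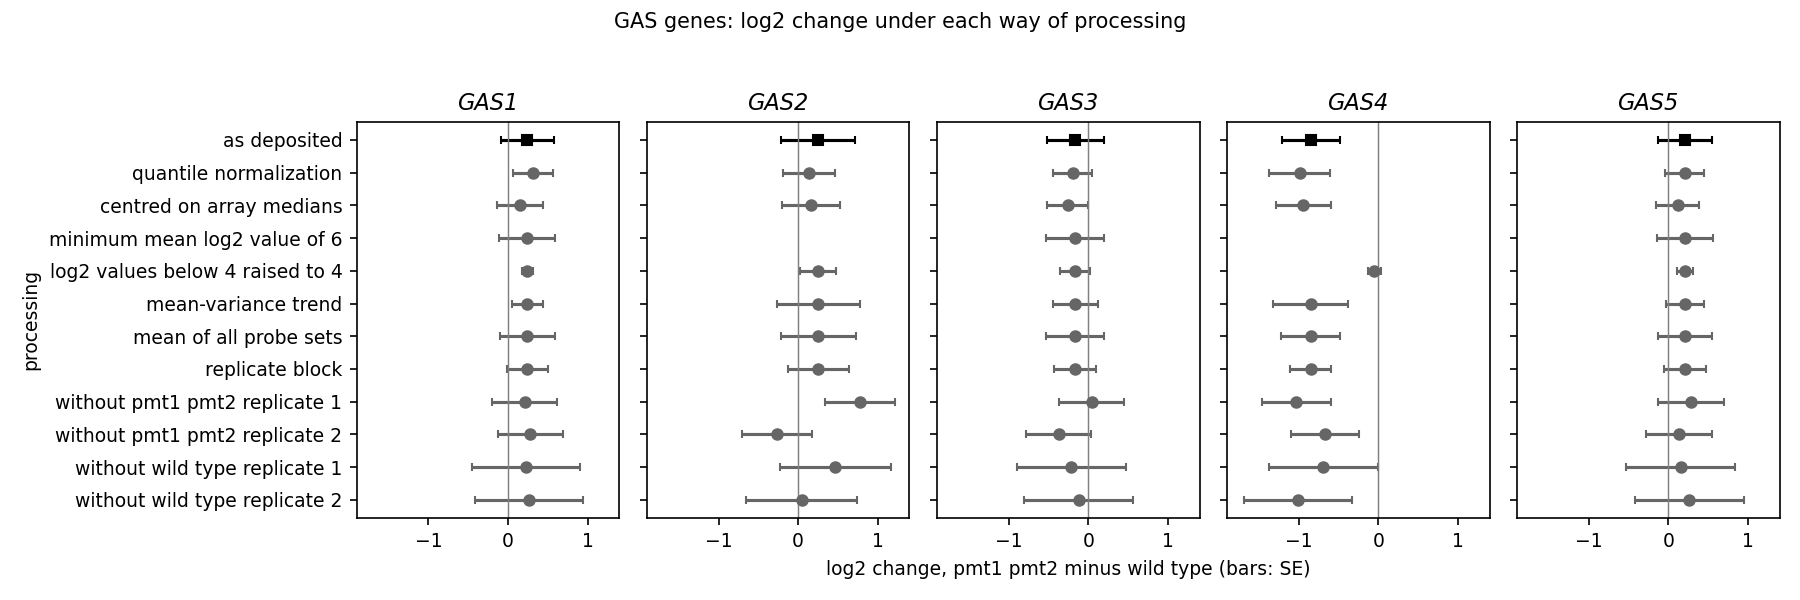
Log2 change, pmt1 pmt2 minus wild type, of each GAS gene under each way of processing the signals (rows), with bars for the standard error. GAS1 and GAS5 stayed above 0 in every row, from 0.15 to 0.32 and from 0.12 to 0.28. Only quantile normalization and centring on array medians could have turned their sign. GAS2 and GAS3 crossed 0 when a pmt1 pmt2 array was left out. GAS2 and GAS4 have no value at a minimum mean log2 value of 6.

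GAS1 and GAS5 stayed above 0 under all 11 alternatives, but most of these could not turn their sign. The fits that alter only the spread, the gene set, low values or extra probe sets repeat the same estimate. Leaving out 1 array cannot turn a gene whose groups do not overlap. Quantile normalization and centring on array medians could have done so, and gave 0.32 and 0.15 for GAS1 and 0.20 and 0.12 for GAS5. No GAS gene passed the adjusted test in any alternative that kept all 4 arrays. The lowest adjusted p of each under the alternatives was 0.531 for GAS1, 0.584 for GAS2, 0.811 for GAS3, 0.145 for GAS4 and 0.719 for GAS5. The size of the GAS1 standard error depended on how the spread was pooled. It was 0.34 as deposited, 0.20 with a mean-variance trend and 0.074 with log2 values below 4 raised to 4, where limma's unadjusted p for GAS1 was 0.052 and its adjusted p 0.531.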

How the data were processed

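The deposited values are probe set signals (intensity, linear units) of 4 arrays made by the authors, with GCRMA named in the submitters' processing notes without version or settings. How the arrays were scaled to each other is not given there. The values hold zeros (5 to 11 probe sets per array) and array medians from 54.4 to 66.1, which is unusual for GCRMA output, so which summary the deposited signals are is uncertain. The log2 of each signal was used without further normalization, and a zero was replaced by 0.1. Of 9335 probe sets, 6504 named 1 gene, 328 named several and 2503 carried no gene name. For 315 genes with several probe sets the one with the highest mean was used, which left 5656 genes, all matched to the R64 assembly for names and order. No filter was applied. The test was a two-sided limma fit (version 3.58.1, R 4.3.3, eBayes, 2 residual degrees of freedom). Its p-values were adjusted over 5656 genes by Benjamini-Hochberg. The fit was also run on simulated data with independent arrays and large changes. Those data lack the correlation between same-numbered arrays and changes as small as those of GAS1 and GAS5. The number of arrays limits the precision.

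The members and lists were chosen with earlier results of these data known. Named genes are the 5 members, PMT1 and PMT2, the 4 smallest p-values of the wall glucan list and of the spore wall and sporulation list, and the 3 nearest profiles of each member above background; FKS1, FKS3, CHS3, CDA2, IME1, the a-type markers and the chromosomal neighbours were named after their values were seen. Alternatives were quantile normalization, centring on array medians, a minimum mean log2 value of 6, a floor of 4 on log2 values, a mean-variance trend, the mean of all probe sets, the replicate number as a block, and leaving out each array. The planned look at protein and promoter sequences was not done here.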

Additional observations from a re-analysis of the deposited data

How the results depend on the processing

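Of 53 GAS values under the alternatives, 51 kept their direction and 2 turned. Many of the 51 could not turn: the setting repeats the estimate, or 1 array is left out where groups do not overlap. No GAS gene passed the adjusted test where all 4 arrays were kept. The 2 that turned were of GAS2 and GAS3. With 1 array left out, log2 changes of GAS2 ran from −0.26 (without pmt1 pmt2 array 2) to 0.78. Those of GAS3 ran from −0.37 to 0.043 (without pmt1 pmt2 array 1). The count of changed genes, 22 as deposited, was 14 after centring, 2 on quantile-normalized values, 38 where the mean log2 value was at least 6, and 1 with log2 values below 4 raised to 4. It ran from 0 (without pmt1 pmt2 array 1, with 612 at limma's unadjusted p under 0.05) to 62 (without wild type array 1), with 1 without pmt1 pmt2 array 2 and 44 without wild type array 2. A fit without 1 array assumes that the lone array varies like the other group. With a replicate block for the array number, the count was 171, and 0 GAS genes passed (adjusted p 0.701, 0.790, 0.811, 0.145 and 0.744 for GAS1 to GAS5). GSC2 and CRH1 passed with this block (adjusted p 0.00520 and 0.0387). Deviations of same-numbered arrays correlated at r = 0.65 over 5656 genes and at 0.80 over the 4323 genes above background on every array; genes are not independent replicates. The labels do not say what the number marks, and with 2 pairs it is taken as a number only. The median of the spore wall and sporulation genes, −0.098 as deposited, was −0.19 after centring, −0.22 on quantile-normalized values, 0.22 over the 2 genes whose mean log2 value was at least 6, 0 with low values raised to 4, and −0.059 to 0.075 when 1 array was left out (0.075 without pmt1 pmt2 array 1). The cause of these shifts was not tested. GAS2 and GAS4 lay under background, so signal over background limits what can be said of them.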
